A study of Arabidopsis thaliana with 12 samples.

Results

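The response that ABA and a pair of its alkylated derivatives share was described by setting all 9 libraries from compound-treated seedlings, as one side, against the 3 libraries from seedlings given the solvent DMSO. These are all 12 libraries of the series. The compounds were given at 10 µM: ABA itself, its 3'-propyl form (3'-propyl ABA) and its 3'-butyl form (3'-butyl ABA). DMSO was the vehicle, and each of the 4 groups had 3 libraries. The derivatives are ABA with a propyl or a butyl group added at its 3' carbon. All groups were Arabidopsis thaliana Col-0 seedlings, several to a well, raised at 22 °C on half-strength MS medium with sucrose in 96-well plates, and kept for 6 h in the treatment solution under continuous light. The labels give their age as 8 days and the text on the series as 7 days. RNA came from seedlings with all their tissues, so fewer cells of a type and less RNA per cell cannot be told apart. Nothing says that the 3 libraries of a group came from separate cultures, and p-values measure the spread between these libraries.

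Abscisic acid is the hormone by which plants respond to drought and hold seeds dormant. Bound to a receptor of the PYR/PYL family it blocks clade A PP2C phosphatases, which sets free the SnRK2 kinases that these phosphatases keep inactive. The kinases phosphorylate ABF transcription factors, bZIP proteins that bind the ABA-responsive element (ABRE) in the promoters of protective genes. In seedlings the hormone is known to slow growth and to turn on genes of dehydration tolerance.

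Of 27655 genes in the deposited tables, 19528 averaged 1 TPM or more across all libraries and were tested. Estimated from the steps between low values, the libraries held 9426065 to 12174237 reads in genes. Pearson correlations of log2(TPM + 1) between libraries of a group were 0.975 to 0.993. In what follows the pooled change is the mean of the 3 compound means minus the DMSO mean on the log2(TPM + 1) scale, with its standard error from limma. The range is the highest minus the lowest compound mean on the same scale, and the spread test is limma's F test that the 3 compound means are equal. Adjusted p-values are Benjamini-Hochberg values over all 19528 genes.

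Against DMSO, 5372 genes were higher with the pooled compounds (27.5% of those tested) and 6534 were lower (33.5%). Increases were larger than decreases: 1626 genes rose at least 2-fold (8.33%) and 1069 fell at least 2-fold (5.47%), and at 4-fold the counts were 511 (2.62%) and 140 (0.717%). The filter on the mean weighs the 9 compound libraries more than the 3 DMSO libraries. Without it 1632 genes rose and 1141 fell at least 2-fold. With each gene's change tested against 2-fold itself, 868 genes were higher and 356 lower. In 3322 genes (17.0%) all 9 compound libraries lay above all 3 DMSO libraries, and in 4453 (22.8%) all 9 lay below. A stricter test asked for a change in one direction with each compound, and 2985 genes rose (15.3%) and 3531 fell (18.1%) in it. The counts of list members given below stand against these shares. The 3 comparisons behind the stricter test share the DMSO libraries. Of the genes that rose at least 2-fold in the pooled contrast, 1491 of 1626 also passed this stricter test, as did 930 of the 1069 that fell at least 2-fold. The pooled change is the mean of those same 3 comparisons, so this overlap is no independent evidence.

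The compounds also differed among themselves. The spread test called 9397 genes (48.1%), among them 1032 of the 1626 that rose at least 2-fold and 790 of the 1069 that fell at least 2-fold. Among the 2-fold increases, the median change was 1.39 with ABA, 1.97 with 3'-propyl ABA and 1.47 with 3'-butyl ABA, and 3'-propyl ABA had the largest of the 3 changes in 1194 genes, 3'-butyl ABA in 332 and ABA in 100. Among the 2-fold decreases the medians were -1.08, -1.74 and -1.03 in the same order, and 3'-propyl ABA had the largest change in 949 of 1069 genes. Over all genes tested, 3'-propyl ABA had the largest change in 64.9%. With 3'-propyl ABA left out, 1394 genes rose at least 2-fold in place of 1626, and 638 fell at least 2-fold in place of 1069. In a direct test 3'-propyl ABA differed from ABA in 8169 genes (41.8%), 3'-butyl ABA from ABA in 313 (1.60%), and 3'-butyl ABA from 3'-propyl ABA in 9531 (48.8%). The 95% interval of the difference between 3'-butyl ABA and ABA lay inside 2-fold for 17812 genes, that between 3'-propyl ABA and ABA for 15772, and that between 3'-butyl ABA and 3'-propyl ABA for 14841. Among the 1626 genes that rose at least 2-fold these counts were 1249, 704 and 637.

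**Figure D1:**
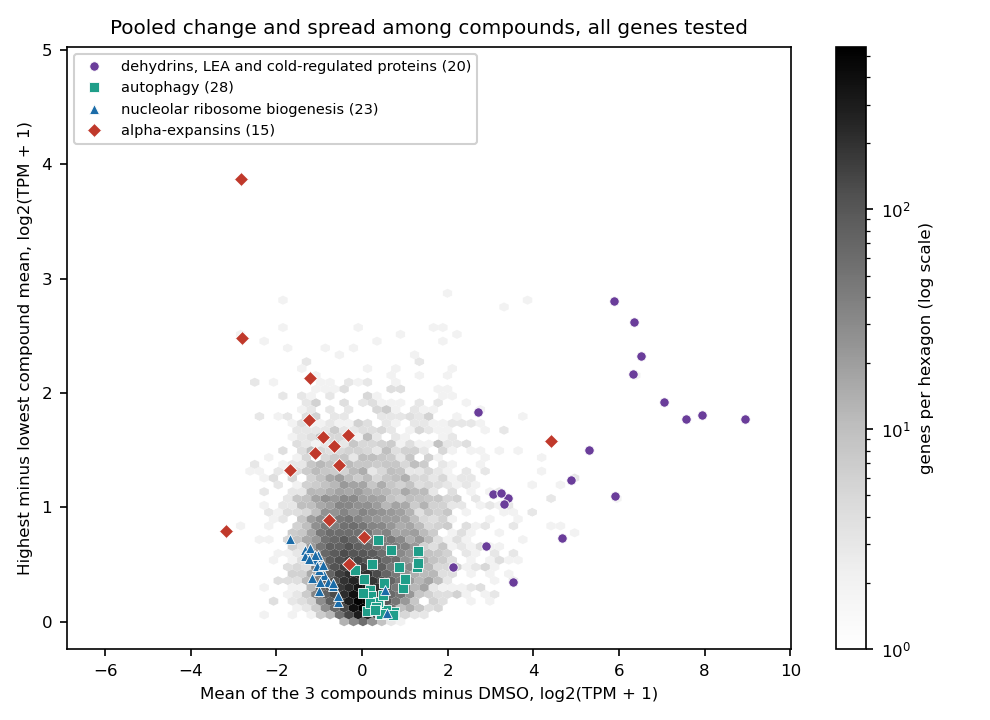
Pooled change (x axis, log2(TPM + 1)) and range among the 3 compound means (y axis, log2(TPM + 1)) of the 19528 genes tested, as the density of genes per hexagon, with the tested members of 4 lists as points. The 20 genes of dehydration and cold proteins lie far to the right at ranges up to 2.81, the 28 autophagy genes have a median range of 0.24 and the 23 ribosome biogenesis genes one of 0.45, and the alpha-expansins, most of them left of 0, spread up to a range of 3.87.

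The largest increases were in genes of small protective proteins and lipid transfer proteins, and in HAI1, a PP2C phosphatase gene. LTP4 (AT5G59310, chr5:23924990-23925957 in TAIR10.1), a lipid transfer protein gene, had 425 to 3783 TPM in the 9 compound libraries (median 797), against 1.13, 0.628 and 0.548 TPM with DMSO. Its pooled change was 9.25 ± 0.11 (limma, adjusted p = 1.67e-13), with a range of 2.94 among compounds. Reads of LTP4 and of its neighbour LTP3, which changed by 8.12 ± 0.24, cannot be told apart with certainty, nor can those of KIN1 and KIN2. LEA4-5 (AT5G06760, chr5:2089445-2090430), a late embryogenesis abundant (LEA) protein gene, had 221 to 949.5 TPM in the 9 compound libraries (median 333), against 1.56, 1.15 and 1.01 TPM with DMSO. All 9 compound libraries lay far above DMSO in this gene, and those with 3'-propyl ABA were highest. The change was 7.56 ± 0.11 (adjusted p = 6.16e-13). The others of the 10 largest increases were KIN1 (8.95), LEA7 (7.94), AT2G37870 (7.58, a protein with a lipid transfer domain), RD29B (7.05), COR15A (6.52), HAI1 (6.51) and AT5G50360 (6.42). AT5G50360 (chr5:20505089-20506354, a von Willebrand factor A domain protein) was listed at 0, 0.103 and 0 TPM with DMSO and reached 45.7 to 141 TPM in the 9 compound libraries (median 94.8). In all, 171 genes were below 1 TPM in every DMSO library and at or above 1 TPM in every compound library, and 57 of them averaged at least 10 TPM with the compounds.

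The promoters of 4 of these 10 genes are printed because they hold several copies of the ABRE core. Each is the 250 bases before the annotated start in RefSeq's TAIR10.1, 5′ to 3′ along the gene's own strand, with ACGTG, on either strand, in capitals. A palindromic CACGTG holds 1 match on each strand. The windows are chr1:19619474-19619723 on the plus strand (LEA7, 5 matches), chr5:2090431-2090680 on the minus strand (LEA4-5, 4 matches), chr5:21236771-21237020 on the plus strand (RD29B, 4 matches) and chr5:20506355-20506604 on the minus strand (AT5G50360, 6 matches).
LEA7: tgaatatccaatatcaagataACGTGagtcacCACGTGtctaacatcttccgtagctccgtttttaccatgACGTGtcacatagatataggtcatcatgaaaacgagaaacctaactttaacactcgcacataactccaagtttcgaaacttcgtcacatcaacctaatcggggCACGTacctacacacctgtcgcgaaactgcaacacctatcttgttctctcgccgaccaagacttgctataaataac
LEA4-5: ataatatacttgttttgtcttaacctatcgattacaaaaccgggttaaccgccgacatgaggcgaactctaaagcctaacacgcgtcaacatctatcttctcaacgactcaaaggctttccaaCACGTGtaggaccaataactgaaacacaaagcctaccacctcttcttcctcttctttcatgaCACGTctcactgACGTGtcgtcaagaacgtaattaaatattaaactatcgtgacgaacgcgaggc
RD29B: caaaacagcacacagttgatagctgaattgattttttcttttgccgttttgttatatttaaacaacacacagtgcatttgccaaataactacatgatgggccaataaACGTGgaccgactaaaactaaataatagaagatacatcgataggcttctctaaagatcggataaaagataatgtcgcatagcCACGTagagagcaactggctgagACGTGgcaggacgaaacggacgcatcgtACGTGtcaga
AT5G50360: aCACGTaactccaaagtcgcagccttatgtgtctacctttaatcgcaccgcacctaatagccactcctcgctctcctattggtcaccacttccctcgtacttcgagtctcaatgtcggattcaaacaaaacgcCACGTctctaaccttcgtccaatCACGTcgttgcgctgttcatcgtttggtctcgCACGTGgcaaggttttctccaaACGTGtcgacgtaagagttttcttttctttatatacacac
In LEA7, RD29B and AT5G50360 the match nearest the start lay 71, 5 and 35 bases before it, and in LEA4-5 it lay 48 bases before. The windows of LTP4, LTP3 and HAI1 held none, and this says only that these letters are not in this window.

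Over all 19401 tested genes with such a window, 24.2% held ACGTG. The share was 42.5% in the genes that rose at least 2-fold (691 of 1626), 61% in the 100 largest increases, and 19.8% in the genes that fell at least 2-fold (211 of 1068). Counted the other way, of genes with 0, 1, 2, 3 and at least 4 matches, 6.36%, 11.2%, 15.3%, 23.2% and 31.3% were at least 2-fold higher. The G-box CACGTG, which overlaps the core, was in 29% of the 100 largest increases and 7.73% of all windows. The DRE core GCCGAC, bound by cold and drought factors of the DREB family, was in 12% of the 100 largest increases and 2.89% of all windows. Among genes that rose at least 2-fold, ACGTG was in 39.8% of the 432 with a range under 0.5 and in 45.2% of the 637 with a range over 1. TATAAA was in 49.6% of the 2-fold increases, 50.5% of the 2-fold decreases and 46.2% of all windows.

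**Figure D2:**
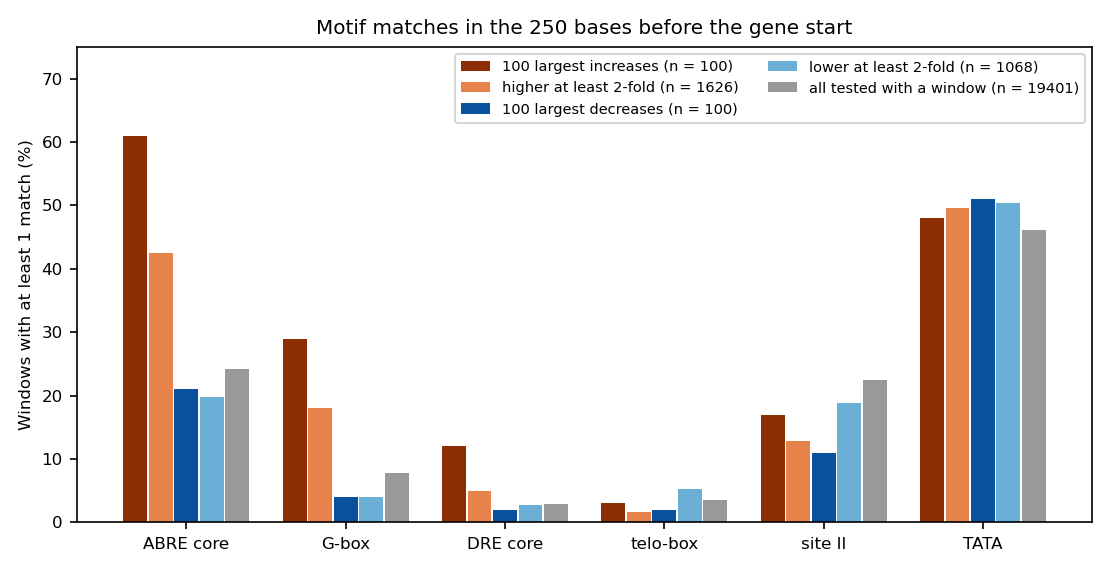
Share of 250-base windows before the gene start (y axis, percent) with at least 1 match to a motif on either strand (x axis), for the 100 largest increases, the 1626 genes at least 2-fold higher, the 100 largest decreases, the 1068 genes at least 2-fold lower and all 19401 tested genes with a window. The ABRE core was in 61% of the 100 largest increases and 24.2% of all windows, while TATAAA, shown for comparison, was between 46.2% and 51% in each class.

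Genes of the signalling pathway itself moved in opposite directions at its different steps: receptors fell, the phosphatases that the receptors block rose most, and kinases and ABF factors rose less. Of 9 receptor genes tested, 7 fell and PYL7 rose, while PYL9 (0.37 ± 0.23, adjusted p = 0.193) did not pass. Without DMSO replicate 1, 2 receptor genes rose. The median was -1.33. Over all genes tested the median was -0.05. PYR1 (AT4G17870, chr4:9928587-9929875), the receptor gene from which the family was named, had 18.7 to 45.6 TPM in the 9 compound libraries (median 25.0), against 179, 154 and 175 TPM with DMSO. Its change was -2.47 ± 0.14 (adjusted p = 4.97e-08), and no compound library came near the DMSO level. PYL4 had 48.0, 42.3 and 31.0 TPM with ABA, 6.57, 6.51 and 8.87 TPM with 3'-propyl ABA and 56.4, 53.3 and 61.8 TPM with 3'-butyl ABA, against 242, 247 and 265 TPM with DMSO. PYL4 was lowest with 3'-propyl ABA, by a range of 2.82 (spread test, adjusted p = 2.02e-07), whereas PYL1 changed by -1.18 with ABA, -1.34 with 3'-propyl ABA and -1.27 with 3'-butyl ABA. PYL7 did not move in one direction: it changed by 0.63 with ABA, -0.14 with 3'-propyl ABA and 1.31 with 3'-butyl ABA. The other 5 receptor genes of the list (PYL3, PYL10, PYL11, PYL12 and PYL13) were below the mean of 1 TPM and not tested.

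All 9 clade A PP2C genes rose, each of them in the stricter test with every compound, with a median of 3.28 and a median range of 0.996. Their summed level was 1121 to 2279 TPM in the 9 compound libraries, against 132 to 167 TPM with DMSO. HAI1 (AT5G59220, chr5:23894404-23896939) had 132 to 343 TPM in the 9 compound libraries (median 177), against 1.13, 0.938 and 1.89 TPM with DMSO, and rose by 6.51 ± 0.13 (adjusted p = 8.25e-12). HAI2 and HAI3 rose by 5.81 and 5.60, while ABI1, one of the founding members, rose by 2.79 ± 0.08 and HAB2 by 1.44 ± 0.07. The SnRK2 kinases had 8 of 10 genes higher and the other 2 not called, with a median of 0.54. OST1 (AT4G33950, chr4:16271745-16274825), the kinase of guard cell closure, had 42.1 to 80.9 TPM in the 9 compound libraries (median 74.2), against 24.9, 18.0 and 20.2 TPM with DMSO, and rose by 1.68 ± 0.16 (adjusted p = 3.38e-06). Its compound means lay within 0.32 of each other, and the difference of 3'-propyl ABA minus ABA was 0.32 ± 0.43 (95% interval). SNRK2.7 instead spread by 2.86, changing by 1.41 with ABA, 3.95 with 3'-propyl ABA and 1.09 with 3'-butyl ABA.

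Most transcription factor genes of the pathway rose. All 10 tested genes of the ABF, ABI and AFP list rose (median 1.62, median range 0.46, against 0.38 for all genes tested), and 8 of them passed the test with every compound. ABF3 (AT4G34000, chr4:16295334-16298285), an ABRE-binding factor, had 119 to 190.1 TPM in the 9 compound libraries (median 138), against 18.8, 9.28 and 11.98 TPM with DMSO. It rose by 3.42 ± 0.15 (adjusted p = 9.26e-09), and AFP1 and AFP3, genes of proteins that bind and restrain ABI5, rose by 5.06 and 4.17. ABF1 rose by 1.35 ± 0.09, and its compound means were 0.14 apart. Of 14 HD-Zip I homeobox genes, 9 rose and 3 fell (median 0.70, median range 0.81), and the spread test called 11: HB7 and HB12, known for growth control under water deficit, rose by 5.44 ± 0.13 and 5.004 ± 0.12, and HB23 fell by 1.25. Of 10 NF-YA genes 7 rose, led by NF-YA5 (2.06 ± 0.15), and 3 were not called (median range 0.36).

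**Figure D3:**
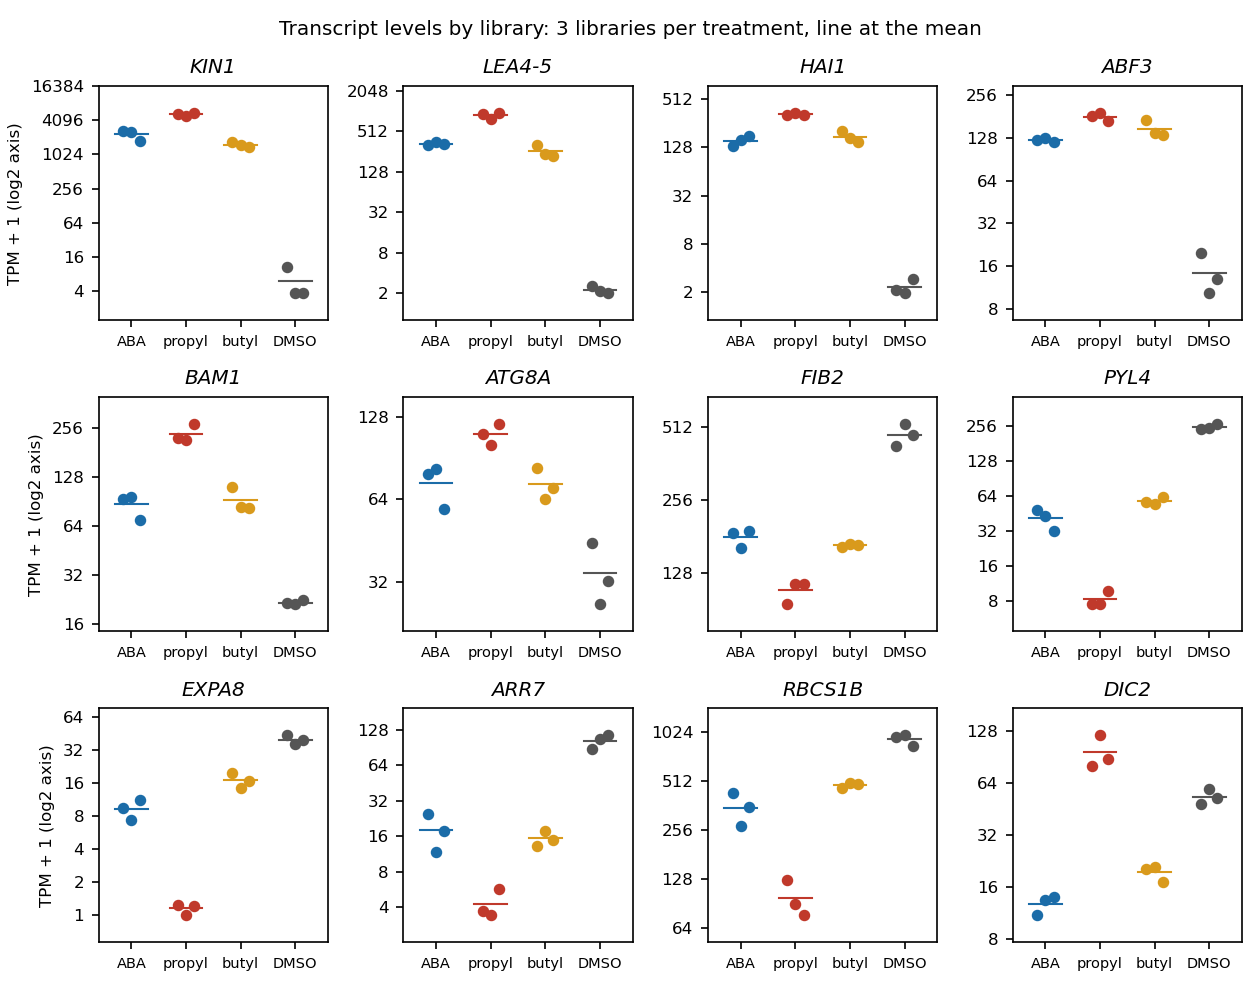
TPM + 1 on a log2 axis in each library (points) with the mean of 3 libraries (lines) for 12 genes, with ABA, then 3'-propyl ABA, then 3'-butyl ABA left of DMSO. KIN1, LEA4-5, HAI1, ABF3, BAM1 and ATG8A were above DMSO in all 9 compound libraries, FIB2, PYL4, EXPA8, ARR7 and RBCS1B were below it in all 9, and DIC2 lay above DMSO with 3'-propyl ABA and below it with ABA and 3'-butyl ABA.

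Genes of both making and removing ABA rose. Of 7 synthesis genes tested, 6 rose (median 0.91), among them NCED3 (2.804 ± 0.17), the rate-limiting dioxygenase of the stress-induced pathway. NCED3 had 43.8, 57.2 and 67.7 TPM with ABA, 40.7, 45.4 and 34.8 TPM with 3'-propyl ABA and 131, 115 and 94.5 TPM with 3'-butyl ABA, against 11.3, 7.49 and 6.39 TPM with DMSO. It was highest with 3'-butyl ABA. BGLU18, whose enzyme releases ABA from its glucose ester, rose by 2.82 ± 0.29, least with 3'-propyl ABA (1.97). Of 7 genes of breakdown and conjugation, 5 rose and the glucosyltransferase gene UGT71C5 fell by 0.74. All 4 CYP707A genes, which encode the 8'-hydroxylases that inactivate ABA, rose. CYP707A1 rose by 3.95 ± 0.15 with a range of 0.93, and CYP707A3 by 2.11 ± 0.09 with a range of 2.21: it changed by 1.34 with ABA, 3.55 with 3'-propyl ABA and 1.44 with 3'-butyl ABA. Of 7 transporter genes, ABCG22 (2.44 ± 0.08) and the ABA exporter gene ABCG25 (1.52 ± 0.11) rose and 5 were not called. With 3'-propyl ABA left out, 2 transporter genes fell, as did 1 without 3'-propyl ABA replicate 1, and the median of the breakdown list was 1.06 in place of 1.64.

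Protective proteins had the highest median of the 33 lists. All 20 genes of dehydrins, LEA and cold-regulated proteins rose with every compound, with a median of 5.09 (4.94 with ABA, 5.85 with 3'-propyl ABA and 4.48 with 3'-butyl ABA). Together they summed to 13101 to 41294 TPM in the 9 compound libraries, against 970.2 to 1382 TPM with DMSO. Within the compounds the sum was 17734 to 19654 TPM with ABA, 35725 to 41294 TPM with 3'-propyl ABA and 13101 to 14822 TPM with 3'-butyl ABA, so the treatments did not overlap. By amount the largest gain was in KIN2, a small cold- and ABA-induced protein, with 3184 to 5849.7 TPM in the 9 compound libraries (median 4270.4), against 254, 170.1 and 115 TPM with DMSO. AT3G02480, a LEA family gene outside the list, had 1509.7, 1759.7 and 1049 TPM with ABA, 7947, 7039 and 9051 TPM with 3'-propyl ABA and 683, 587 and 550.2 TPM with 3'-butyl ABA, against 22.5, 20.4 and 22.6 TPM with DMSO. It thus spread by 3.72 among compounds, while KIN2 spread by 0.73 and COR15B by 0.35. The ABRE core was in 15 of the 20 windows of the list, and in 6 of 9 of the PP2C windows.

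Genes of compatible solutes were mixed within each pathway, with the largest increases in a proline synthesis enzyme and in galactinol synthases. P5CS1 (AT2G39800, chr2:16598072-16603319), the first enzyme of proline synthesis, had 342 to 614 TPM in the 9 compound libraries (median 408), against 23.2, 18.6 and 18.1 TPM with DMSO, and rose by 4.39 ± 0.09 (adjusted p = 7.17e-12). Its 3 compound means were 0.52 apart. P5CS2 and P5CDH rose by 0.93 and 1.28, P5CR and the transporter gene PROT3 fell by 0.51 and 0.95, and PRODH1, the first enzyme of proline breakdown, was not called (-0.01 ± 0.10, adjusted p = 0.963). Of 11 galactinol and raffinose genes, 7 rose, with GOLS2 (4.39 ± 0.15) and GOLS4 (3.03 ± 0.27), genes of galactinol synthases, at the top. Among inositol phosphate synthase genes MIPS2 rose by 2.51 ± 0.16 and MIPS3 fell by 2.66. MIPS1 was not called (-0.00 ± 0.07), and its compounds disagreed: it changed by -0.02 with ABA, -0.66 with 3'-propyl ABA and 0.67 with 3'-butyl ABA.

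Of the genes for barrier lipids, nearly all of the suberin list and most of the wax list rose. Of 15 suberin genes, 14 rose with every compound and KCS20 was not called (-0.15 ± 0.08, adjusted p = 0.106), with a median of 2.97 and a median range of 0.77. ABCG6, a transporter of suberin precursors, had 86.2 to 224 TPM in the 9 compound libraries (median 137), against 5.25, 1.04 and 1.99 TPM with DMSO, and rose by 5.36 ± 0.30 (adjusted p = 1.07e-07). MYB41, a transcription factor that activates suberin genes, had 4.25 to 13.1 TPM in the 9 compound libraries (median 6.36), against 0.113, 0 and 0 TPM with DMSO. CYP86A1, the fatty acid hydroxylase of root suberin, rose by 1.81 ± 0.36, with DMSO replicate 1 at 26.9 TPM and the other DMSO libraries at 6.22 and 11.1 TPM. Beside this, 1 of 8 endodermis markers rose (CASP5, 1.76 ± 0.30) and 7 were not called, and the spread test called 4 of the 8. The markers summed to 44.4 to 113 TPM with ABA, 37.8 to 66.1 TPM with 3'-propyl ABA and 123 to 163 TPM with 3'-butyl ABA. With DMSO the sum was 54.7 to 152 TPM, the top of this range being replicate 1. None of the 8 was at 0 in every library. Without DMSO replicate 1 the suberin median was 3.15, again with 14 genes higher, and 1 lower. The part of endodermis abundance in the suberin result was not tested.

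Of 11 wax genes 8 rose and KCS12 fell (-1.81 ± 0.11), with a median of 0.89 and a median range of 1.31 (0.66 with ABA, 1.52 with 3'-propyl ABA and 0.15 with 3'-butyl ABA). CER1, an enzyme of alkane formation, had 159, 197 and 258 TPM with ABA, 528, 603 and 562 TPM with 3'-propyl ABA and 133, 132 and 137 TPM with 3'-butyl ABA, against 14.9, 17.9 and 14.8 TPM with DMSO. CER1 rose with each compound and most with 3'-propyl ABA. Leaving 3'-propyl ABA out, the median of the wax list was 0.38 and 6 genes were higher. MYB96, a regulator of wax genes under drought, rose by 1.21 ± 0.13, with a range of 1.07.

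Most genes of autophagy and of branched-chain amino acid breakdown rose, by modest amounts. Of 28 autophagy genes, 20 rose and none fell, with a median of 0.41 and a median range of 0.24, below the 0.38 of all genes tested. The medians were 0.37 with ABA, 0.44 with 3'-propyl ABA and 0.42 with 3'-butyl ABA. ATG8A (AT4G21980, chr4:11655562-11657034), which encodes the ubiquitin-like protein that coats autophagosomes, had 57.8 to 119 TPM in the 9 compound libraries (median 81.6), against 43.4, 25.5 and 31.3 TPM with DMSO. It rose by 1.31 ± 0.15 (adjusted p = 1.32e-05), and ATG13A and ATG8H rose by 1.31 and 1.28. ATG1A, the kinase gene that starts the process, rose by 0.74 ± 0.09 with compound means 0.08 apart, and the difference of 3'-propyl ABA minus ABA was -0.08 ± 0.24 (95% interval). The 8 autophagy genes not called ranged from -0.15 (ATG12B) to 0.32 (ATG12A). Of 12 genes of branched-chain amino acid breakdown, 10 rose, none fell, and the median was 0.56 with a median range of 0.32. IVD, the dehydrogenase of leucine breakdown, had 47.3 to 71.0 TPM in the 9 compound libraries (median 64.2), against 29.8, 24.3 and 28.2 TPM with DMSO, and rose by 1.15 ± 0.11. BCAT2, a branched-chain transaminase gene, led the list at 1.31 ± 0.17.

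Of 17 starch breakdown genes 12 rose and BAM3 fell (-0.35 ± 0.06), with a median of 0.47. In the test with every compound 6 of the 17 rose and 0 fell. BAM1 (AT3G23920, chr3:8641181-8644449), the beta-amylase of stress- and guard-cell starch, had 68.5 to 269 TPM in the 9 compound libraries (median 95.9), against 20.4, 20.1 and 21.3 TPM with DMSO, and rose by 2.504 ± 0.12 (adjusted p = 7.72e-09). AMY1, an alpha-amylase gene, was called higher in the pooled contrast (2.05 ± 0.18) and its libraries overlapped those of DMSO: it had 2.97, 1.87 and 1.09 TPM with ABA, 21.7, 27.2 and 29.5 TPM with 3'-propyl ABA and 0.418, 0.52 and 0.188 TPM with 3'-butyl ABA, against 0.0977, 0.243 and 0.0945 TPM with DMSO. It rose with ABA and most with 3'-propyl ABA, and was not called with 3'-butyl ABA. Of 16 genes of chlorophyll breakdown and senescence, a list that also holds HAI1, 13 rose and SAG101 fell, with medians of 0.84 with ABA, 1.51 with 3'-propyl ABA and 0.55 with 3'-butyl ABA. In the test with every compound 8 of the 16 rose and 0 fell. NAP and ORE1, NAC factors of leaf senescence, rose by 4.17 ± 0.14 and 2.11 ± 0.13. PAO, the oxygenase that opens the chlorophyll ring, had 69.0, 98.2 and 80.4 TPM with ABA, 250.5, 293 and 277 TPM with 3'-propyl ABA and 43.9, 49.1 and 47.6 TPM with 3'-butyl ABA, against 17.5, 25.1 and 28.4 TPM with DMSO.

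**Figure D4:**
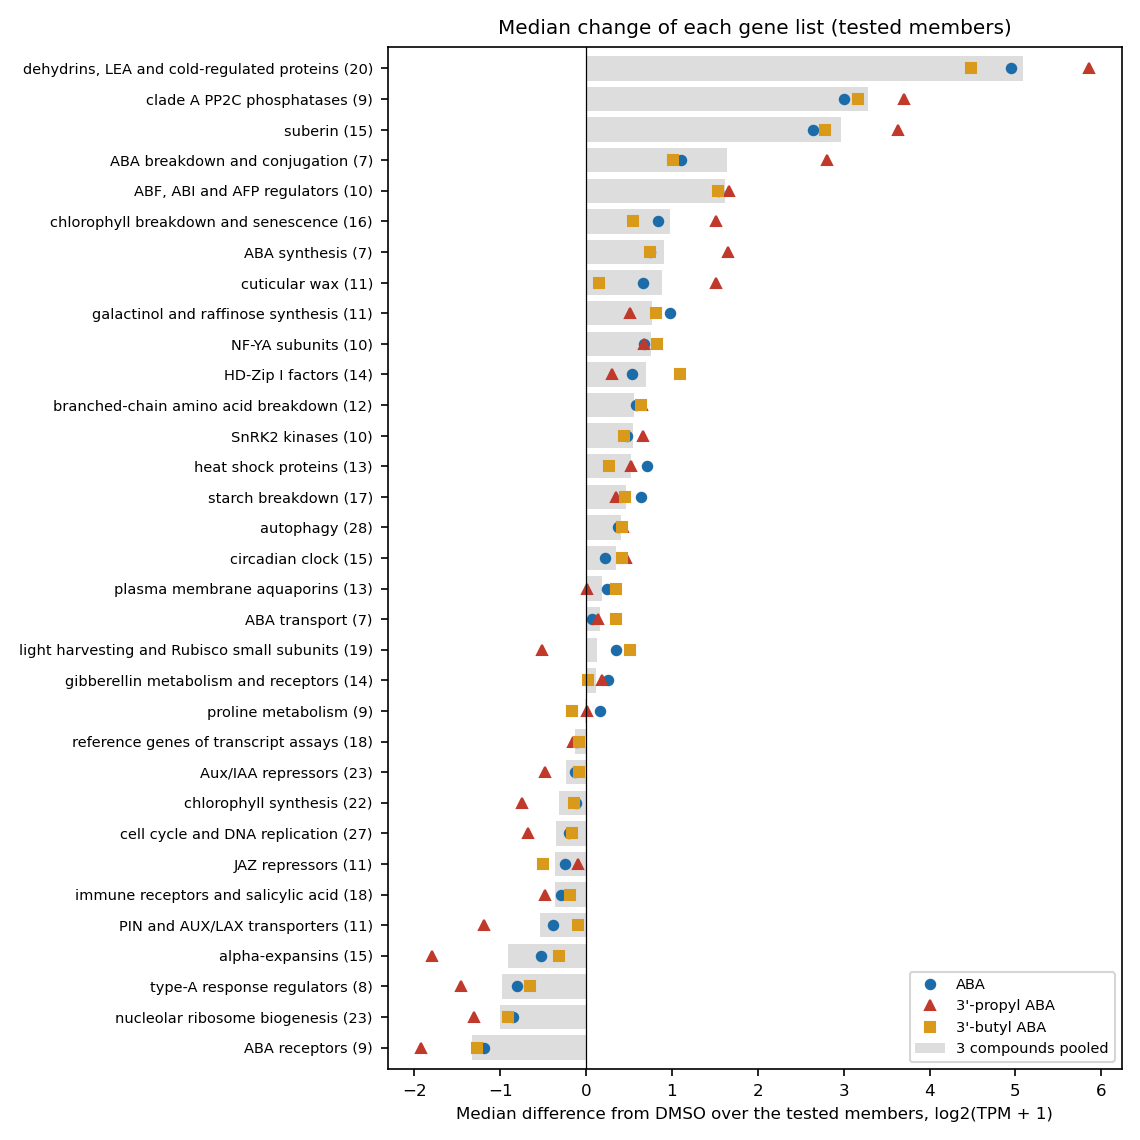
Median difference from DMSO over the tested members of each of 33 lists (x axis, log2(TPM + 1)), for the pooled compounds (grey bars) and for ABA, for 3'-propyl ABA and for 3'-butyl ABA (symbols). The number of tested members stands in brackets, and all differences share the 3 DMSO libraries. The 3 symbols lie close together for autophagy, branched-chain amino acid breakdown and the ABF, ABI and AFP regulators, and far apart for alpha-expansins, with 3'-propyl ABA at -1.80.

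Among decreases the genes of ribosome assembly in the nucleolus fell with every compound in all but a pair of cases. Of 23 such genes 21 fell and 2 rose, and all 23 passed the test with every compound, with a median of -1.002 (-0.85 with ABA, -1.30 with 3'-propyl ABA and -0.91 with 3'-butyl ABA). The median range was 0.45, and the spread test called 18 of the 23. Their summed level was 2229 to 3304 TPM in the 9 compound libraries, against 5455 to 6332 TPM with DMSO. FIB2 (AT4G25630, chr4:13074090-13076432), a fibrillarin that methylates ribosomal RNA, had 94.6 to 189.7 TPM in the 9 compound libraries (median 164), against 424, 524 and 471 TPM with DMSO, and fell by 1.67 ± 0.08 (adjusted p = 5.20e-09). NOP56 and NOP58, core proteins of the same RNA-guided particle, changed by -1.33 ± 0.07 and -1.33 ± 0.07, and NUC1, the nucleolin gene, had 449.8 to 718 TPM in the 9 compound libraries (median 648), against 1146, 1377 and 1275 TPM with DMSO. The pair that rose was REIL1 (0.59 ± 0.08) and LSG1 (0.54 ± 0.08), which act on the large subunit in the cytoplasm after it has left the nucleus. REIL1 had 38.8 to 49.4 TPM in the 9 compound libraries (median 43.7), against 32.7, 26.5 and 27.5 TPM with DMSO, with compound means 0.08 apart. Its close relative REIL2 fell by 0.56.

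The promoters of NOP56 and NOP58 are printed because both hold the pair of motifs typical of plant ribosome biogenesis genes. The windows are chr1:20986953-20987202 on the minus strand and chr5:9540611-9540860 on the plus strand, again 250 bases before the start in TAIR10.1, with the telo-box AAACCCTA and the site II letters TGGGCC or TGGGCT, on either strand, in capitals.
NOP56: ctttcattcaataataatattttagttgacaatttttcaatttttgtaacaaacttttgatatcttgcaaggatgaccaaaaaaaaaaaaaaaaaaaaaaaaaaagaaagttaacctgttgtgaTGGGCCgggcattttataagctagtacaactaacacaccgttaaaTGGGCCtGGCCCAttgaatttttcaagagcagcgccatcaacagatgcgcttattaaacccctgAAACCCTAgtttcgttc
NOP58: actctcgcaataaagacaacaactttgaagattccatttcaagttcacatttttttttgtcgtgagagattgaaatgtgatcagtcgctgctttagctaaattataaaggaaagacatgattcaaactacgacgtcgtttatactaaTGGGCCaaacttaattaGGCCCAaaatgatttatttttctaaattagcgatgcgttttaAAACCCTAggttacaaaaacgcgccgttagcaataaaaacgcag
The telo-box was in 6 of the 23 windows of this list and in 3.53% of all windows, and site II was in 16 of 23 and in 22.4% of all. Of all genes that fell at least 2-fold, 5.24% held the telo-box and 18.9% site II. The window of FIB2 held neither.

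Most genes of cell proliferation and cell expansion fell in the pooled contrast, but fewer of them fell with every compound. In the list of 27 genes for the cell cycle and DNA replication, 18 fell and CYCB2;3 rose, a call that was lost without any 1 of the DMSO libraries, ABA replicate 1, or 3'-butyl ABA replicate 2 or 3. The medians were -0.20 with ABA, -0.68 with 3'-propyl ABA and -0.17 with 3'-butyl ABA, and the spread test called 20 of the 27. RNR1, the large subunit of ribonucleotide reductase, had 44.5, 44.1 and 56.4 TPM with ABA, 26.2, 22.6 and 22.0 TPM with 3'-propyl ABA and 47.6, 50.8 and 47.6 TPM with 3'-butyl ABA, against 65.0, 78.1 and 73.0 TPM with DMSO, and changed by -0.90 ± 0.09. The mitotic cyclin CYCB1;1 was not called (-0.28 ± 0.15, adjusted p = 0.132). Without 3'-propyl ABA 7 of the 27 fell and the median was -0.18, in place of -0.35. In the test with every compound 4 of the 27 fell, beside 18.1% of all genes tested. Of 15 alpha-expansin genes, which loosen cell walls, 13 fell, with a median of -0.91 and a median range of 1.54. EXPA1 had 18.3 to 124 TPM in the 9 compound libraries (median 51.2), against 459.9, 339 and 298 TPM with DMSO, and changed by -2.81 ± 0.14 (adjusted p = 2.20e-08). EXPA8 had 8.39, 6.33 and 10.104 TPM with ABA, 0.255, 0 and 0.222 TPM with 3'-propyl ABA and 18.7, 13.5 and 15.7 TPM with 3'-butyl ABA, against 42.8, 35.0 and 38.7 TPM with DMSO, and its range of 3.87 was among the 5 largest of the 4-fold decreases. EXPA16 went the other way: it had 94.0 to 396 TPM in the 9 compound libraries (median 159), against 6.52, 7.71 and 9.70 TPM with DMSO, and rose by 4.40 ± 0.17 (adjusted p = 3.55e-09). With 3'-propyl ABA left out, 9 expansin genes fell and the median was -0.48. In the test with every compound 5 of the 15 expansin genes fell and 1 rose.

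Of the genes for auxin transport, 10 of 11 PIN and AUX/LAX genes fell and PIN2 was not called (-0.29 ± 0.23), with medians of -0.38 with ABA, -1.18 with 3'-propyl ABA and -0.09 with 3'-butyl ABA. AUX1, the main auxin uptake carrier of roots, had 79.9, 78.2 and 80.4 TPM with ABA, 34.9, 29.2 and 28.4 TPM with 3'-propyl ABA and 77.2, 78.1 and 80.3 TPM with 3'-butyl ABA, against 119, 98.9 and 99.6 TPM with DMSO. Only ABA and 3'-butyl ABA taken, 6 of the 11 fell, and in the test with every compound 3 fell. Of 23 Aux/IAA repressor genes 11 fell, IAA19 most (-1.27 ± 0.19), 3 rose and 9 were not called, and 5 rose without 3'-propyl ABA and 1 without DMSO replicate 2. Among 8 type-A response regulators, early cytokinin-induced genes, 4 fell with every compound, ARR16 rose and 3 were not called. ARR6 had 6.43, 6.57 and 6.01 TPM with ABA, 4.52, 4.096 and 6.84 TPM with 3'-propyl ABA and 5.52, 5.91 and 6.30 TPM with 3'-butyl ABA, against 35.3, 36.1 and 36.9 TPM with DMSO. It changed by -2.46 ± 0.11 (adjusted p = 4.44e-09) with compound means only 0.28 apart. ARR7 fell further with 3'-propyl ABA, changing by -2.58 with ABA, -4.63 with 3'-propyl ABA and -2.76 with 3'-butyl ABA.

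Photosynthesis genes showed no pooled direction as a set, and the compounds went opposite ways. Of 19 light harvesting and Rubisco small subunit genes 8 rose, 3 fell and 8 were not called, 0 of them rose in the test with every compound, and the spread test called all 19. The medians were 0.35 with ABA, -0.51 with 3'-propyl ABA and 0.52 with 3'-butyl ABA. LHCB1.3, an antenna protein gene, had 11822, 12492 and 14672 TPM with ABA, 8649, 6936 and 6110.3 TPM with 3'-propyl ABA and 13729, 14629 and 14508 TPM with 3'-butyl ABA, against 10239, 11151 and 9221 TPM with DMSO. Its pooled change was 0.11 ± 0.10 (adjusted p = 0.352). LHB1B2, a gene of the same family that is not in the list of 19, rose with each compound, by 0.70 with ABA, 0.48 with 3'-propyl ABA and 0.86 with 3'-butyl ABA. The Rubisco gene RBCS1B fell with each, changing by -1.41 with ABA, -3.27 with 3'-propyl ABA and -0.93 with 3'-butyl ABA. Reads of the LHCB1 genes and of the RBCS genes cannot be separated with certainty. Without 3'-propyl ABA, 15 of the 19 rose, and with quantile normalization of all 12 libraries 4 rose and 6 fell. Without DMSO replicate 3, 4 of the 19 rose. Of 22 chlorophyll synthesis genes 15 fell and 2 rose (median -0.31), led by GSA2 (-0.89 ± 0.08). Without DMSO replicate 3 none of the 22 rose, and 1 rose without DMSO replicate 2 and 4 without ABA replicate 1. With 3'-propyl ABA left out 9 fell and 6 rose, and in the test with every compound 5 of the 22 fell.

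The largest decreases included a pair of cysteine proteinase genes. AT1G29090 (chr1:10162795-10164452, a cysteine proteinase) had 0.3, 0 and 0.331 TPM with ABA and was listed at 0 in all 6 libraries of the derivatives, against 40.03, 95.7 and 103 TPM with DMSO. CP1, another cysteine proteinase gene, had 0.66 to 4.21 TPM in the 9 compound libraries (median 2.497), against 50.4, 150.4 and 169 TPM with DMSO, and changed by -5.02 ± 0.33 (adjusted p = 2.52e-07). DMSO replicate 1 was the lowest DMSO library in both. AT5G46960, of the invertase and pectin methylesterase inhibitor family, was listed at 0 in all 9 compound libraries, against 9.15, 40.9 and 28.8 TPM with DMSO. The next were EARLI1 (-4.95) and AT1G27020 (-4.61), AT2G43140 (-4.18, a bHLH factor), the peroxidase gene AT5G19890 (-4.14), the receptor kinase gene CRK30 (-3.98), AT5G01881 (-3.89) and PYL6 (-3.81). In all, 93 genes were at or above 1 TPM in every DMSO library and below 1 TPM in every compound library, and only AT1G29090, AT5G46960 and AT5G01881 of them averaged at least 10 TPM with DMSO. By amount the largest losses were in AT2G45180, in the translation elongation factor gene EF1A-A4 and in RBCS3B. AT2G45180, of the lipid transfer and seed storage protein family, had 1391 to 2202 TPM in the 9 compound libraries (median 1788), against 3509.8, 3689 and 3493 TPM with DMSO.

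Smaller lists were mixed. Of 15 clock genes 10 rose and 2 fell, but none fell without DMSO replicate 1 and 1 without DMSO replicate 3. PRR9 and CCA1, both of the morning, rose by 1.66 ± 0.13 and 1.34 ± 0.12, and ELF4 by 0.92 ± 0.11. Of 13 plasma membrane aquaporin genes 6 rose and 1 fell, and PIP2A rose by 1.09 ± 0.13 with compound means 0.15 apart. Of 14 gibberellin genes 7 rose and 6 fell, with the 3 GID1 receptor genes up by 0.56 to 0.69 and the synthesis gene GA3OX1 changed by -1.13 ± 0.20. Of 18 genes of immune receptors and salicylic acid, 9 fell and 3 rose: FLS2, the flagellin receptor, had 5.53 to 23.0 TPM in the 9 compound libraries (median 19.8), against 36.5, 43.1 and 45.0 TPM with DMSO, and changed by -1.42 ± 0.11. Just 1 gene of that list rose without 3'-propyl ABA, and likewise without DMSO replicate 1 or 3, ABA replicate 2, 3'-butyl ABA replicate 1 or 3'-propyl ABA replicate 2. Of 11 JAZ repressor genes of jasmonate signalling, 3 rose and 4 fell, JAZ4 most (-1.74 ± 0.20). DMSO replicate 3 stood apart in this list, with a sum of 498 TPM, against 299.7 and 316 TPM in the other DMSO libraries and 317 to 502 TPM with the compounds. Without that library 3 rose and 3 fell, and the median was -0.10 in place of -0.36, while without DMSO replicate 2 just 1 rose. Of 13 heat shock genes 4 rose, among them HSFA6B (5.24 ± 0.13), an ABA-induced heat shock factor, and 8 were not called. The median of the heat shock list was 0.52, against -0.15 without DMSO replicate 1, 0.97 without DMSO replicate 2 and 0.85 without DMSO replicate 3. Genes often used to normalize transcript assays also moved: of 18, 4 rose and 9 fell, with UBQ11 at 0.92 ± 0.06, UBQ5 at -0.87 ± 0.06 and EF1A-A4 at -0.83 ± 0.06. PP2AA3 was not called (0.03 ± 0.05, adjusted p = 0.642), with 47.3 to 53.8 TPM in the 9 compound libraries (median 50.3), against 49.6, 48.5 and 48.4 TPM with DMSO. ACT2 fell by 0.39 and UBQ10 rose by 0.41.

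Genes at both ends of the range among compounds are given for the 4-fold changes. The increase with the smallest range was AT4G38080 (chr4:17882644-17883612, a hydroxyproline-rich glycoprotein), which changed by 2.27 with ABA, 2.23 with 3'-propyl ABA and 2.29 with 3'-butyl ABA. It had 189 to 306 TPM in the 9 compound libraries (median 249), against 97.4, 27.7 and 46.3 TPM with DMSO. The 95% interval of 3'-propyl ABA minus ABA was -0.04 ± 0.82, which still allows a difference of that size between them. AT4G23670, a gene of the polyketide cyclase and lipid transport family, was measured more closely: it changed by 2.55 ± 0.07 with compound means 0.20 apart, and 3'-propyl ABA minus ABA was -0.20 ± 0.20. AT1G74460 (0.14), AT1G52680 (0.17) and AT2G21100 (0.18) were the other increases with the smallest ranges, and their 95% intervals for 3'-propyl ABA minus ABA were 0.12 ± 0.72, 0.04 ± 1.098 and 0.18 ± 0.63, so a small range does not show equal responses. Among decreases AT5G46960 and AT3G10120 had no range, being listed at 0 in all 9 libraries, and GLIP2, AT1G05700 and NDB3 followed at 0.04, 0.07 and 0.11, with every compound library below 1 TPM, where the floor of the scale leaves little room for a range.

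Among the increases of at least 4-fold the largest range belonged to AT5G39520 (chr5:15823735-15825566, a DUF1997 protein), with 5.90, 7.14 and 3.88 TPM with ABA, 64.9, 67.2 and 98.4 TPM with 3'-propyl ABA and 2.28, 1.35 and 1.76 TPM with 3'-butyl ABA, against 0, 0 and 0.148 TPM with DMSO. All 9 compound libraries were above DMSO, and those with 3'-propyl ABA were by far the highest. After it among these increases came AMY1 (4.30), AT4G18422 (4.28), CSLG2 (4.09, a cellulose synthase-like gene) and AT2G18340 (3.92, a LEA domain protein). Among decreases GASA6, a gibberellin-regulated gene, changed by -1.997 with ABA, -4.72 with 3'-propyl ABA and -0.79 with 3'-butyl ABA. AT5G63180, EXPA8, AT1G15125 and AT3G23550 had ranges of 3.91, 3.87, 3.87 and 3.81. In each of these 10 genes the change was largest with 3'-propyl ABA and smallest with 3'-butyl ABA.

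Some genes with a pooled call had a compound called against DMSO in the other direction. There were 47 of them, 3'-propyl ABA in 33, 3'-butyl ABA in 12 and ABA in 3. Genes whose compounds cancel in the pooled mean, such as MIPS1, have no pooled call and are not in this count. DIC2 (AT4G24570, chr4:12686459-12687650), a mitochondrial dicarboxylate carrier gene, had 9.94, 12.4 and 13.0 TPM with ABA, 79.2, 121 and 87.3 TPM with 3'-propyl ABA and 19.4, 19.9 and 16.2 TPM with 3'-butyl ABA, against 47.4, 58.0 and 51.7 TPM with DMSO. Its libraries were below DMSO with ABA and 3'-butyl ABA and above it with 3'-propyl ABA. IAA29, an auxin repressor gene, changed by 0.76 with ABA, -3.00 with 3'-propyl ABA and 0.41 with 3'-butyl ABA, and CMPG1, a ubiquitin ligase gene, by -1.04 with ABA, 0.46 with 3'-propyl ABA and -1.21 with 3'-butyl ABA. LHCB2.3 changed by 0.92 with ABA, -0.67 with 3'-propyl ABA and 1.82 with 3'-butyl ABA, and AGP17, an arabinogalactan protein gene, by 0.33 with ABA, 2.09 with 3'-propyl ABA and -0.74 with 3'-butyl ABA, the one of the 5 in which 3'-butyl ABA stood apart in sign. The pooled call of LHCB2.3 was lost without DMSO replicate 2 (adjusted p = 0.0834) or 3 (0.0655), and that of IAA29 without DMSO replicate 1 (0.0558).

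Markers of other cell types were read beside these lists. Of 8 xylem markers 7 rose with a median of 0.91, LAC17 and MYB46 by 1.33 ± 0.10 and 1.27 ± 0.11, and their sum was 164 to 275 TPM in the 9 compound libraries, against 124 to 136 TPM with DMSO. Of 12 guard cell and stomatal lineage markers 10 fell and OST1 and SLAC1 rose. In the test with every compound 5 of the 12 fell and 1 rose, and the spread test called 8. MYB60, a guard cell factor, changed by -1.51 ± 0.10, and SPCH, which starts the stomatal lineage, changed by -0.94 ± 0.15. The sum of the 12 was 127 to 155 TPM in the 9 compound libraries, against 138 to 150.01 TPM with DMSO. OST1 made up much of it, with 42.1 to 80.9 TPM with the compounds, against 24.9, 18.0 and 20.2 TPM with DMSO. The sum thus does not describe the 10 that fell. Of 8 root hair markers RHD6 rose and 7 were not called (1 fell without 3'-propyl ABA replicate 2), and they summed to 30.5 to 152 TPM in the 9 compound libraries, against 63.6 to 174 TPM with DMSO, with DMSO replicate 1 at the top. Of 8 leaf mesophyll markers 4 rose and 2 fell, while in the test with every compound 1 rose and 1 fell. The spread test called all 8. They summed to 12905 to 14847 TPM with ABA, 7287 to 10174 TPM with 3'-propyl ABA and 15635 to 16589 TPM with 3'-butyl ABA. With DMSO the sum was 11507 to 13169.5 TPM, above all libraries with 3'-propyl ABA and below all with 3'-butyl ABA. Of 6 phloem markers 2 rose, but 0 rose in the test with every compound. Of 2 root cap and meristem genes tested neither was called, though 1 rose without DMSO replicate 1 or without 3'-propyl ABA replicate 2. Of 7 seed genes the LEA genes EM6 and EM1 and the oleosin genes OLEO1 and OLEO2 rose, and the storage protein genes CRU3 (0.76 ± 0.67), CRA1 (0.71 ± 0.58) and SESA1 (-0.13 ± 0.71) were not called. With CRU2 and SESA3, which were not tested, the 9 seed genes of the list summed to 384 to 2075 TPM in the 9 compound libraries, against 184 to 286 TPM with DMSO. No marker of these lists was at 0 in every library. The part of these markers in the other results was not tested.

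Library composition also shifted. The 100 most abundant genes held 18.7% to 20.5% of all TPM in the 9 compound libraries, against 17.0% to 18.4% with DMSO (exact permutation test, two-sided, adjusted p = 0.0182 over 4 values). Unadjusted, the permutation p was 0.00909, the smallest that this two-sided form of the test can give with 220 splits. For the 500 most abundant genes in place of 100 the difference turned round, to -0.77 percentage points (adjusted p = 0.345). Genes encoded by the chloroplast held 1.04% to 1.28% of TPM with the compounds, against 1.29% to 1.39% with DMSO, with the same p-values as the 100 most abundant genes. These permutation tests treat the 9 compound libraries as 1 group, though they come from 3 compounds. With any 1 DMSO library left out, both adjusted p-values were 0.0727. With the other values of the 4 not called, this is the lowest that both could reach with the splits then left. It therefore cannot show whether the differences weakened. Fewer libraries allow fewer splits, which raises the smallest p-value possible. The differences were then -0.17 to -0.22 percentage points for the chloroplast share and 1.65 to 2.34 for the 100 most abundant genes. The mitochondrial share and the number of genes at or above 1 TPM overlapped (adjusted p = 0.836 for both). Since TPM is a share of a fixed total, the level of every gene is relative to these. The median change over all genes was -0.05, and 0.00 with median-of-ratios scaling.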

How the data were processed

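The measurements are poly(A), strand-specific, paired-end RNA-seq of 12 libraries from whole seedlings. The authors deposited 1 table of TPM, a length-scaled share of all transcripts, per library, with gene identifiers. Reads were demultiplexed with bcl2fastq and the genome was TAIR10, per the submitters' processing notes. Not given in the sources used here were: aligner, counter and gene annotation. Since the values are TPM and not the counts the design had foreseen, limma 3.58.1 in R 4.3.3 was run on log2(TPM + 1), with trend and robust settings, on genes that averaged 1 TPM or more over all libraries. The pseudocount of 1 understates the change of genes near 0. TPM keeps no total, and the depth given is an estimate from the spacing of low values.

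One fit with 4 treatment means gave the pooled contrast, the pairwise differences and the F test among compounds. The test for a change with every compound used the largest of the 3 p-values against DMSO, where the 3 signs were equal. Calls are at an adjusted p of 0.05, two-sided. The fit was also run on simulated counts, drawn independently for each library with few genes changed. That run checks the computation and does not give error rates for these data. Replicate numbers were checked for pairing: residuals of same-numbered libraries correlated between -0.17 and 0.33. They were above 0.1 in all pairs of replicate 1, in some of replicate 2 and in none of replicate 3. The numbers were therefore not used to pair libraries in the main fit.

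Named genes are the 10 largest increases and 10 largest decreases without overlap between libraries, the 5 increases and 5 decreases of at least 4-fold with the smallest and with the largest range, up to 5 genes in which a compound opposed the pooled direction, the largest changes in TPM, and up to 3 members of each list by size. Other list members named in the text were picked after their values were seen. The members and lists were chosen with earlier results of these data known. Of 555 listed genes 522 were tested. Names, coordinates and promoter windows are from RefSeq on TAIR10.1. A planned list of cytosolic ribosomal proteins was not run, since product names did not separate them from plastid ones. Alternatives were quantile and median-of-ratios scaling, other filters, another pseudocount, a replicate block, and leaving out each library and each compound.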

Additional observations from a re-analysis of the deposited data

Results flagged for a closer look

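Among 45 measures looked at over the 9 compound libraries, 3 had a library far from the other 8, and chance gives about 1 in 20. The mitochondrial share of TPM was 0.0579% in 3'-propyl ABA replicate 3, against 0.0315% to 0.0436% in the other 8. The mean log2(TPM + 1) of the autophagy list was 4.34 in ABA replicate 3, against 4.55 to 4.70 in the others. The mean of the root cap and meristem list, which rests on 2 genes, was 0.441 in 3'-propyl ABA replicate 2, against 0.989 to 1.46 in the others.

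In 5 named genes the compounds were called in opposite directions against DMSO, and the difference among compounds was itself tested with limma's F test. Its adjusted p was 2.15e-07 for DIC2, 2.15e-07 for IAA29, 1.29e-06 for AGP17, 2.42e-06 for CMPG1 and 0.000114 for LHCB2.3. These genes were selected for that opposition, so the p-values describe them and are no independent evidence.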

How the results depend on the processing

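With 3'-propyl ABA left out, 638 genes fell at least 2-fold, and tested against 2-fold itself 868 were higher and 356 lower. The adjusted p of the chloroplast share and of the share in the 100 most abundant genes (exact permutation test) was 0.0242 to 0.0727 over the libraries left out. Each was the lowest that this pair could reach with the splits left and the other shares and counts not called. Fewer libraries allow fewer splits, which raises the smallest p-value possible. For the 500 most abundant genes in place of 100 the difference turned round (-0.77 percentage points, adjusted p = 0.345). The cause was not tested. Leaving out 1 library gave 4461 to 5567 genes higher, 5745 to 6527 lower, 1516 to 1768 and 1025 to 1137 at least 2-fold, 7386 to 9933 in the spread test, and 2462 to 3180 higher and 2931 to 3496 lower with every compound. Median-of-ratios scaling gave 6077 higher and 5887 lower, and quantile normalization 5126 and 6887, with 4 photosynthesis genes higher and 6 lower. Same-numbered libraries were not treated as pairs: residuals correlated between 0.12 and 0.33 in all 6 pairs of replicate 1, but between -0.17 and 0.27 for replicate 2 and between -0.10 and 0.06 for replicate 3. Of 36 comparisons of a library with another group, 19 correlated best with the own number. Each comparison had the 3 libraries of that group to choose from, so some such matches arise without pairing. A replicate block gave 5476 higher and 6580 lower, 1627 and 1067 at least 2-fold, and 9620 in the spread test. Of the values recomputed for named genes, 2546 kept their call, 9 gained one and 5 lost one. For the lists 2008 values stayed and 83 moved, including those without each of 10 further libraries, a choice made after seeing the data. TPM without counts gives no counting error, and 3 DMSO libraries limit every comparison.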
